A study of Mus musculus with 4 samples.

Results

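Natural killer (NK) cells and group 1 innate lymphoid cells (ILC1) were examined as nuclei in 4 single-nucleus RNA libraries of mouse liver. A nucleus was taken as NK/ILC1 when it held at least 2 unique molecular identifiers (UMIs, each standing for 1 captured transcript) over Ncr1, Klrb1c, Klre1, Eomes, Prf1, Gzma and Tbx21, and none over the T cell genes Themis, Cd3d, Cd3e and Cd3g or over Stab2, Ptprb, Reln, Cd5l, Clec4f and Pax5, which mark endothelial cells, macrophages and B cells. The rule chose 59 of 25611 nuclei that passed the filters, or 0.230%. Membership was thus chosen by the UMIs of these 17 genes. The mice were males aged 12 months, and the tissue was their non-tumor liver. When 14 days old they had received 25 mg/kg of diethylnitrosamine (DEN), which causes liver tumors. Of the 4 libraries, 2 were labelled Brca1-WT and 2 Brca1-KO. All groups shared the sex, the age and the DEN exposure, and no library came from an unexposed liver. The series title concerns Brca1, a DNA repair gene, and Bhmt, an enzyme of methionine synthesis. The sources used here do not give the strain, the cell type in which Brca1 was deleted or the deleted exons.

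Both lineages are innate lymphocytes of the liver, which rearrange no antigen receptor and respond to interleukin-12, interleukin-15 and interleukin-18 with interferon-gamma. Conventional NK cells circulate, depend on the T-box factor Eomes, carry the integrin Itga2 and receptors of the Ly49 (Klra) family, and kill with perforin and granzymes. Liver ILC1 stay in the sinusoids, depend on the related factor Tbx21 (T-bet) more than on Eomes, and carry Itga1, Il7r, Cd200r1, Cxcr6 and Tnfsf10. The receptor NKp46, encoded by Ncr1, and NK1.1, encoded by Klrb1c, are shared by both.

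Sequence ahead of the start site is shown for 3 genes to let the receptor genes be compared: the gate genes Ncr1 and Klrb1c, and Klrk1, a receptor gene outside the gate that the tests below called. Each run is the 250 bases upstream of a RefSeq start in GRCm38.p6, written 5′ to 3′ on the gene's strand. Capitals mark TGTGGT, or ACCACA where it lies on the other strand, the core letters bound by RUNX factors, of which Runx3 acts in cytotoxic lymphocytes. The coordinates are RefSeq's and are not taken from the deposited counts.
Ncr1, chr7:4337465-4337714, plus strand: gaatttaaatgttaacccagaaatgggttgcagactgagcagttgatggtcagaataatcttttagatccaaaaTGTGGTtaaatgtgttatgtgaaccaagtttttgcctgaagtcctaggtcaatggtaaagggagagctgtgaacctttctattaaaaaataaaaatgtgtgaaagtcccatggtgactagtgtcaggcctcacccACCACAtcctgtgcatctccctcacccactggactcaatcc
Klrb1c, chr6:128788642-128788891, minus strand: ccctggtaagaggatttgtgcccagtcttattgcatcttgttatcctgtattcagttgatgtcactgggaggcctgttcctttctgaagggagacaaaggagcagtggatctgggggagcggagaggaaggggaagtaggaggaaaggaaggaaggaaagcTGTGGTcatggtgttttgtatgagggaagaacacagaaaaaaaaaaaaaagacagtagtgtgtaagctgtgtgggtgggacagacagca
Klrk1, chr6:129623865-129624114, minus strand: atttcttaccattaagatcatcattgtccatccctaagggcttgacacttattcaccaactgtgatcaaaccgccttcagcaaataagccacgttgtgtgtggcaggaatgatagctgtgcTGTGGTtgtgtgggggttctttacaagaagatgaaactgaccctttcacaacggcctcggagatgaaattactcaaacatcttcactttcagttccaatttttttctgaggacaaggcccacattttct
Ncr1 held 2 such matches, and Klrb1c and Klrk1 held 1 each. No gene without a match is shown. The receptor genes Klri2, Il12rb2 and Il18rap, also called higher below, were not among the genes with a match. The letters, on either strand, occurred in the windows of 5 of the 7 gate genes (Ncr1, Klrb1c, Klre1, Prf1 and Gzma), of 0 of the 4 T cell gate genes, and of 15.9% of 27025 genes with a window. They were in 5 of 16 genes called higher against both T classes below (31.2%), Klrk1 among them, and in 3 of 14 called lower (21.4%). GGTGTGA, the core letters of T-box factors such as Tbx21 and Eomes, searched the same way with no overlap with the RUNX letters, was in 0 of the 7 gate genes and in 3.84% of all genes, in 1 of those 16 higher genes (6.25%) and in 3 of the 14 lower genes (21.4%). A match is a description of letters, not a binding site.

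The gate genes chose the nuclei, so their levels are given as a description. Values in series follow the order Brca1-WT replicate 1, Brca1-WT replicate 2, Brca1-KO replicate 1 and Brca1-KO replicate 2. The 59 nuclei divided as 18, 15, 7 and 19. Ncr1 had 23, 20, 14 and 16 UMIs, in 35 nuclei. Tbx21 had 27, 16, 10 and 14 UMIs, in 38 nuclei. These genes together carried most gate UMIs, and both were found in every library. Klre1, an NK receptor of the lectin-like family, had 18, 7, 0 and 4 UMIs in 20 nuclei. Klrb1c had 4, 4, 3 and 12 UMIs in 16 nuclei. The genes of killing and of conventional NK identity were sparse: the granzyme gene Gzma had 6, 0, 3 and 0 UMIs in 5 nuclei, Eomes 1 UMI in each library, and the perforin gene Prf1 0, 1, 1 and 1. Klre1 thus came from 3 libraries and Gzma from 2.

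The 5 markers given for the label are gate genes, so their presence follows from the rule and is no support for the name. Of the 59 nuclei, 51 held a UMI of Ncr1, Klrb1c, Klre1, Eomes or Gzma, and 8 entered on Tbx21 or Prf1 alone. Ncr1 was detected in 59.3% of the NK/ILC1 nuclei, in 0.256% of T nuclei with at most 3000 UMIs and in 0.0842% of endothelial nuclei (at least 3 UMIs of Stab2 and Ptprb). Median depth was 1403 UMIs in the NK/ILC1 nuclei, 1259 in those T nuclei, and between 1413.5 and 2165 across libraries in the endothelial nuclei. Tbx21 differed less, with 64.4% of NK/ILC1 nuclei and 29.7% of those T nuclei. Outside the gate, Ptprc, the gene of the common leukocyte antigen CD45, was present in 48 of 59 nuclei (81.4%). At the edge of the rule, 28 nuclei held exactly 2 gate UMIs and had Ptprc in 78.6%, and 109 nuclei just outside with 1 gate UMI had Ptprc in 51.4%. The 26 receptor and factor genes that both lineages share summed to 4507 CPM (UMIs scaled to a common total) in the first and 547 CPM in the second.

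**Figure D1:**
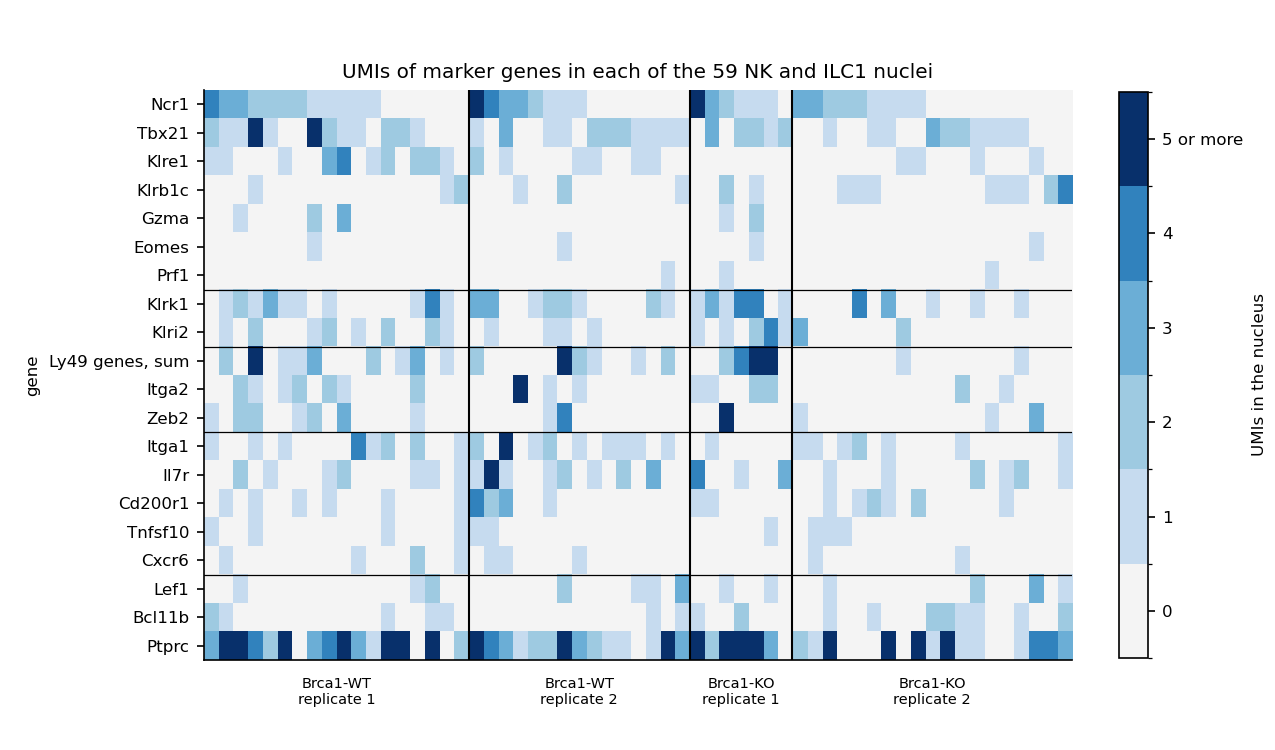
UMIs of 20 rows of marker genes (y axis; the Ly49 row is a sum) in each of the 59 NK and ILC1 nuclei (x axis), ordered within a library by Ncr1 and with the libraries divided by vertical lines; darker blue means more UMIs, up to 5 or more. Ncr1 or Tbx21 marks most nuclei, Eomes appears once per library, and the Ly49 row is nearly empty in Brca1-KO replicate 2.

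The markers that separate conventional NK cells from ILC1 did not divide these nuclei into groups. A Ly49 UMI was found in 21 nuclei and an Itga2 UMI in 16, so that 30 carried one or the other. Itga1 was found in 25, Il7r in 24, Cd200r1 in 18, Tnfsf10 in 10 and Cxcr6 in 9, so that 46 carried at least 1 of these 5 ILC1 genes. Markers of both lists met in 23 nuclei, another 23 held only ILC1 genes, 7 held only Ly49 or Itga2, and 6 held neither. Itga1 and Itga2 occurred together in 7 nuclei. At about 1000 genes per nucleus (median 994), an absent UMI does not show an absent transcript: 0 of 59 nuclei allows a share of up to 5.08% with a UMI, from counting error only.

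Several of the ILC1 genes were also common in other nuclei. Itga1, an integrin chain that binds collagen, was in 42.4% of NK/ILC1 nuclei, 43.0% of T nuclei up to 3000 UMIs and 67.8% of endothelial nuclei, and after thinning each nucleus to 500 UMIs the shares were 20.3%, 24.0% and 29.3%. Il7r, the interleukin-7 receptor chain, was in 40.7%, 48.1% and 1.06%. Cxcr6, a chemokine receptor of liver-resident lymphocytes, was in 15.3%, 18.2% and 0.539%. These shares were therefore no higher than in T nuclei. Cd200r1, an inhibitory receptor, stood at 30.5%, 10.7% and 4.98% (10.2%, 5.63% and 1.14% thinned), and Itga2 at 27.1%, 5.88% and 1.04% (10.2%, 1.79% and 0.118% thinned). Both were more frequent in the NK/ILC1 nuclei than in either comparison class, before and after thinning.

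Levels of the state markers varied between libraries. Il7r had 181, 882, 665 and 244 CPM, Cd200r1 121, 551, 166 and 244 CPM, and Itga1 262, 882, 83.2 and 244 CPM. Itga2 had 221, 386, 499 and 91.4 CPM. The groups overlapped for Il7r, Cd200r1 and Itga2. For Itga1 they did not overlap, with the Brca1-WT values higher, though Brca1-WT replicate 1 and Brca1-KO replicate 2 were nearly equal. The Itga1 value of Brca1-KO replicate 1 rests on 1 UMI. With 2 libraries a group, many of the 470 genes of the genotype fit below did not overlap either. The Itga1 values are therefore not read as a genotype difference. The 11 Ly49 genes of the files, which encode receptors for MHC class I molecules, summed to 383, 771, 1497 and 61.0 CPM. Klra4, an activating member, had 5, 7, 7 and 0 UMIs, Klra1 6, 3, 3 and 0, and Klra5 6, 1, 4 and 0. Brca1-KO replicate 2 was the low library for all of them although it gave the most nuclei, 19, and 32808 UMIs. Counts within the Ly49, Klrb1 and Klri families are uncertain because their members are near-identical and reads can be split between them.

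The 4 nuclei with an Eomes UMI held 1288, 1438, 2144 and 3897 UMIs. Ly49 UMIs were present in 3 of them (3, 6, 6 and 0 UMIs), and none had an Itga1 UMI. Each library held 1 such nucleus, so Eomes-positive and Eomes-negative nuclei were not tested against each other.

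Genes of effector function were scarce. Among cytokines and chemokines, 5 of 11 genes had any UMI, and Ccl5, a chemokine stored by resting cytotoxic lymphocytes, led with 1, 3, 2 and 5 UMIs. Ifng, Tnf, Ccl3, Csf2, Il10 and Lta were at 0, which allows up to 26.6 CPM over the 59 nuclei. Of 16 granule and death-ligand genes 13 had UMIs: Rab27a, which docks secretory granules, had 12, 10, 8 and 5, the proteoglycan gene Srgn 7, 6, 2 and 1, Fasl 6, 4, 1 and 0, and Gzmb 0, 1, 0 and 3. Gzmc, Gzmk and Gzmm were at 0. Of 9 cycling genes, 2 had a UMI and Mki67 and Top2a were at 0.

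Receptor and signalling genes were better covered. Klrk1, which encodes the activating receptor NKG2D, had 16, 15, 14 and 10 UMIs in 29 nuclei. Il2rb, the chain through which interleukin-15 signals, had 17, 8, 8 and 6 UMIs. Txk, a Tec-family kinase, had 28, 20, 3 and 16 UMIs in 36 nuclei, and Stat4, which transmits interleukin-12 signals, had 21, 11, 11 and 16. The activating receptor Cd226 had 50, 23, 12 and 30 UMIs and Inpp4b, a phosphatase gene expressed in ILC1, 45, 41, 12 and 32. All of them had UMIs in every library. The adaptors Tyrobp (0, 3, 0 and 1 UMIs) and Hcst (0, 0, 1 and 1 UMIs), which couple activating receptors, were close to 0. Klrg1, a receptor of mature NK cells, Pdcd1 and Lair1 had no UMI.

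Hepatocyte transcripts were present in the NK/ILC1 nuclei. The 19 hepatocyte genes all had UMIs, summing to 13048, 7934, 5572 and 13411 CPM. A few nuclei set the high values: without the 2 nuclei that Scrublet, which simulates doublets, called in Brca1-WT replicate 1 (8276 and 15434 UMIs), that library had 7629 CPM, and the 3 nuclei over 3000 UMIs of Brca1-KO replicate 2 held 231 of its 440 hepatocyte UMIs. At or under 3000 UMIs the sums were 8221, 8351, 5572 and 9895 CPM, against 6234 to 9303 CPM in T nuclei of that depth. The other types gave less. Endothelial genes summed to between 152 and 403 CPM (9 of 11 with a UMI, Oit3 and Tek at 0), macrophage genes to between 83.2 and 165 CPM (7 of 11; C1qc, Cd163, Lyz2 and Marco at 0), and B cell genes to between 0 and 161 CPM (3 of 9; Ebf1 and Ms4a1 at 0). T cell identity genes outside the gate summed to 886, 1818, 1248 and 1372 CPM in the NK/ILC1 nuclei and to between 3769 and 4480 CPM in T nuclei up to 3000 UMIs. Cd4, Cd8a, Cd8b1 and Ctla4 were at 0, while Bcl11b was found in 17 NK/ILC1 nuclei and Lef1 in 13. The 24 nuclei without Ncr1 held 2.96 T identity UMIs and 5.92 UMIs of the shared NK/ILC1 genes on average, and the 35 with Ncr1 held 1.89 and 12.3. The part of unmarked T cells in the gate was not tested. Scrublet called no other nucleus of the 59.

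NK/ILC1 nuclei were compared with 842 T nuclei (204, 147, 129 and 362), taken by at least 1 UMI of the 4 T cell genes and none of the other 6. UMIs were summed per library and class and tested with edgeR's quasi-likelihood test with the library as a block; the 17 gate genes were left out. The comparison class was mixed in depth. Of the 842, 451 had over 3000 UMIs (87, 36, 35 and 293), with a median of 10398 and Ptprc in 10.2%, and they held between 72.1% and 97.4% of the T UMIs of a library. The other 391 (117, 111, 94 and 69) had Ptprc in 87.0%. Each result is therefore given also with both classes at or under 3000 UMIs, a limit chosen after the data were seen, which left 52 NK/ILC1 nuclei (15, 14, 7 and 16).

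Against all T nuclei, 810 of 4920 genes were called (16.5%) at an edgeR adjusted p below 0.05, 364 higher in NK/ILC1 nuclei (7.4%) and 446 lower (9.07%). Without scaling beyond library totals the split turned to 466 higher and 302 lower, because the median of all genes moved from -0.27 to -0.02 on the log2 scale. With both classes at or under 3000 UMIs, 42 of 1472 genes were called (2.85%), 26 higher (1.77%) and 16 lower (1.09%), and the counts were the same without scaling. Of the genes tested in both comparisons 25 were called in both: 22 higher in both, Abtb2 and Fam169b lower in both, and Lck with opposite signs. The Abtb2 calls were lost without Brca1-WT replicate 1 (edgeR adjusted p = 0.13 against all T nuclei and 0.34 at or under 3000 UMIs). That of Fam169b against all T nuclei was lost without Brca1-WT replicate 1 (0.058), Brca1-WT replicate 2 (0.15) or Brca1-KO replicate 1 (0.095). At or under 3000 UMIs Fam169b had 1 UMI in NK/ILC1 nuclei and passed the expression filter only through its T sums. The comparisons share their NK/ILC1 nuclei and are not independent.

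**Figure D2:**
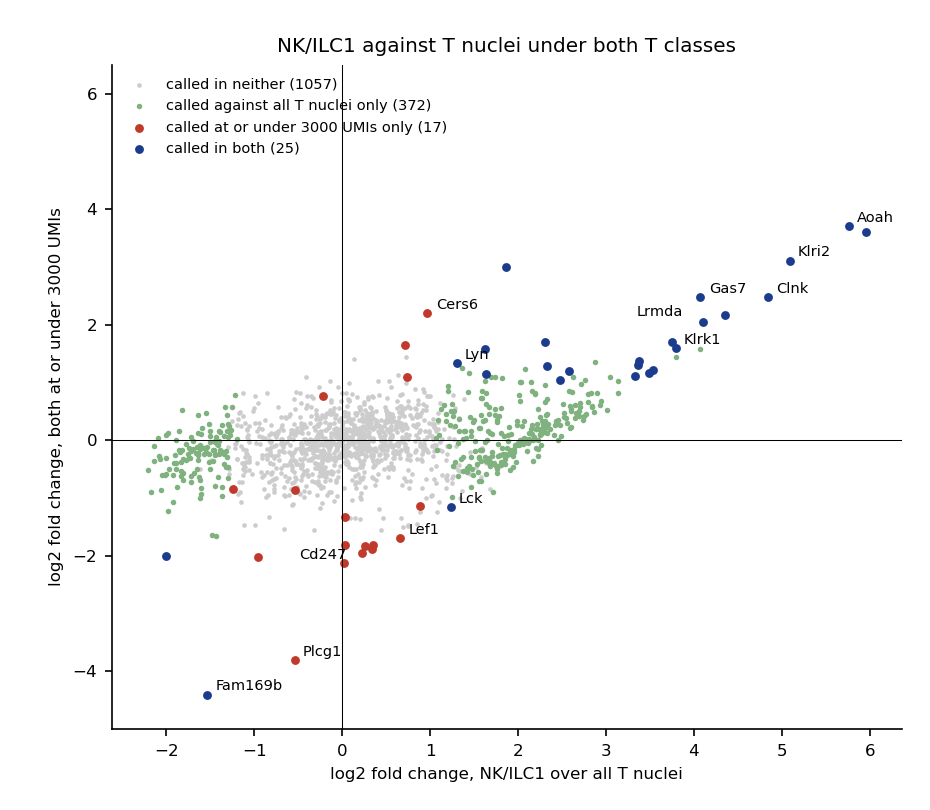
Each point is 1 of 1471 genes, with the log2 fold change of NK/ILC1 over all T nuclei on the x axis and over T nuclei with both classes at or under 3000 UMIs on the y axis; colour gives the comparison in which edgeR called it. Clnk, Aoah, Klri2, Klrk1 and Gas7 lie high on both axes, while Cd247, Lef1 and Plcg1 are low on the y axis alone.

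The genes called higher in both comparisons included receptors and signalling molecules of innate lymphocytes. Clnk, a cytokine-dependent adaptor of the SLP-76 family, had 1968, 1259, 1580 and 852 CPM in NK/ILC1 nuclei and 409, 164, 199 and 203 CPM in T nuclei, at or under 3000 UMIs in both. The ranges did not overlap. It was higher in 4 of 4 libraries, by 2.48 ± 0.27 (log2, SE; edgeR adjusted p = 2.4e-12), and by 4.84 ± 0.43 against all T nuclei. Klrk1 had 568, 795, 1164 and 473 CPM against 222, 134, 504 and 136 CPM. Its classes overlapped only through the T nuclei of Brca1-KO replicate 1, and it was higher in every library by 1.59 ± 0.33 (edgeR adjusted p = 0.00028). Klri2, an NK receptor gene of the lectin-like family, had 350, 265, 748 and 237 CPM against 64.3, 59.6, 38.2 and 0 CPM. The ranges did not overlap, and the difference was 3.11 ± 0.56 (edgeR adjusted p = 2.6e-05). Klri2 passed the expression filter only through its NK/ILC1 sums, so the size of its difference is uncertain and the lack of overlap was favoured.

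Of 8 cytokine receptor genes tested at or under 3000 UMIs, 2 were called higher, Il12rb2 and Il18rap. The interleukin-18 receptor chain Il18r1 (0.45 ± 0.39) and Il2rb (0.53 ± 0.36) were not called there (edgeR adjusted p = 0.79 and 0.66). Il12rb2, a chain of the interleukin-12 receptor, had 350, 265, 665 and 379 CPM against 134, 74.5, 183 and 87.2 CPM in T nuclei. It did not overlap and was higher by 1.70 ± 0.40 (edgeR adjusted p = 0.0039). Il12rb2 passed the expression filter mainly through its NK/ILC1 sums, which favours such a difference. Il18rap, a chain of the interleukin-18 receptor, had 962, 795, 582 and 142 CPM against 409, 276, 160 and 184 CPM. It was higher in 3 of 4 libraries, with Brca1-KO replicate 2 on the other side, by 1.16 ± 0.34 (edgeR adjusted p = 0.030). Txk had 831, 795, 250 and 615 CPM against 333, 231, 206 and 271 CPM, higher in 4 of 4 by 1.22 ± 0.33 (edgeR adjusted p = 0.014). The Il12rb2 call was lost without either library labelled Brca1-KO (edgeR adjusted p = 0.063 without replicate 1 and 0.070 without replicate 2). The Il18rap call was lost without Brca1-WT replicate 1, Brca1-WT replicate 2 or Brca1-KO replicate 1 (edgeR adjusted p = 0.31, 0.22 and 0.17). The Txk call was lost without Brca1-WT replicate 1 (edgeR adjusted p = 0.12), Brca1-WT replicate 2 (0.15) or Brca1-KO replicate 2 (0.050). Against all T nuclei these 3 genes were called with any 1 library left out.

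Other genes that stood higher had broader roles. Gas7, which encodes a membrane-bending adaptor of the F-BAR family, had 306, 464, 582 and 331 CPM against 52.6, 59.6, 61.1 and 107 CPM, a difference of 2.48 ± 0.47. Aoah, a lipase that deacylates endotoxin and is expressed by NK cells and macrophages, had 656, 199, 416 and 331 CPM against 81.8, 14.9, 0 and 9.69 CPM, a difference of 3.71 ± 0.59. Both kept every NK/ILC1 library above every T library, and both were called when any 1 library was left out. Like Klri2, they passed the expression filter only through their NK/ILC1 sums. The filter thus favoured these differences and the lack of overlap, and their sizes are uncertain. The enzymes of sphingolipid metabolism Cers6 (2.20 ± 0.38), Sptlc2 (1.58 ± 0.44) and Ugcg (1.70 ± 0.37), were also called higher in all libraries at or under 3000 UMIs, and Cers6 was not called against all T nuclei. Sgms1, which makes sphingomyelin, was lower by 2.03 ± 0.50 on the log2 scale (log2 fold change -2.03). These enzymes were put together after their values were seen. Sptlc2 passed the expression filter only through its NK/ILC1 sums, and Cers6 and Ugcg mainly so. Sgms1 passed it mainly through its T sums. The filter thus favoured these differences too, and their sizes are uncertain. The Cers6 call held with any 1 library left out, while those of Ugcg and Sptlc2 were lost without Brca1-WT replicate 1 (edgeR adjusted p = 0.10 and 0.43) or Brca1-KO replicate 1 (0.16 and 0.22). Lyn, a Src-family kinase of myeloid and B cells, was called higher (1.34 ± 0.40, edgeR adjusted p = 0.040) but was on that side in only 2 of 4 libraries. Without Brca1-WT replicate 1 or Brca1-KO replicate 1 it was too sparse to be tested there.

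Plcg2 and Klrb1b were among the 15 genes of smallest p that were higher than in all T nuclei. With few T UMIs they passed the expression filter only through the NK/ILC1 sums, so the sizes of their differences are uncertain, and they did not pass it at or under 3000 UMIs. Plcg2, the phospholipase C gamma form used by B and NK cells, had 7, 11, 7 and 10 UMIs in NK/ILC1 nuclei and 3, 0, 1 and 1 in all T nuclei (7.96 ± 0.67). Klrb1b, an inhibitory receptor, had 10, 9, 2 and 2 against 1, 5, 0 and 1 UMIs (6.48 ± 0.76). At or under 3000 UMIs with no expression filter the differences were smaller, 4.50 for Plcg2 and 5.30 for Klrb1b (edgeR adjusted p = 5.7e-07 and 7.8e-07), where the median of all genes lay at -0.75. Plcg1, the phospholipase C gamma form used by T cells, had 43.7, 0, 0 and 0 CPM against 193, 164, 229 and 252 CPM at or under 3000 UMIs. It was lower by 3.80 ± 0.90 on the log2 scale (log2 fold change -3.80, edgeR adjusted p = 0.0036, and 0.070 without Brca1-KO replicate 2). With 1 UMI in those NK/ILC1 nuclei, Plcg1 passed the expression filter only through its T sums, so the size of its difference is uncertain too. A switch between Plcg1 and Plcg2 was not tested. Of the 15 genes, 11 were tested at or under 3000 UMIs, and all 11 were called there in the same direction. The 15 were picked by p in mostly the same NK/ILC1 nuclei. Several of the 11, among them Aoah, Klri2 and Gas7, were tested there only through their NK/ILC1 sums. This count was thus largely set in advance and is not a separate test.

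Of the T cell identity list, 2 of 4 tested genes, Bcl11b and Lef1, were called lower at or under 3000 UMIs. Against all T nuclei 3 of 6 were called the other way, higher in NK/ILC1 nuclei: Trbc1 (2.81 ± 0.62), Ms4a4b (1.54 ± 0.43) and Trat1 (2.30 ± 0.73). Ms4a4b was at -0.42 and not called at or under 3000 UMIs, where the others were not tested. Tcrg-C4, a gamma chain gene of T cell receptors, was also higher than in all T nuclei (3.67 ± 0.79). Tcrg-C4 passed the expression filter there only through its NK/ILC1 sums, and Trbc1 and Trat1 mainly so. The filter thus favoured this direction for them, and the sizes of their differences are uncertain. The calls of Ms4a4b and Trat1 were lost without Brca1-KO replicate 2 (edgeR adjusted p = 0.20 and 0.69), and that of Ms4a4b also without Brca1-WT replicate 2 (0.062). Calls against all T nuclei thus included T cell genes beside NK genes. Cd247, the zeta chain of the T cell receptor, which NK cells use as well, had 175, 265, 416 and 237 CPM against 889, 1692, 810 and 659 CPM in T nuclei at or under 3000 UMIs. The ranges did not overlap, with a log2 fold change of -1.94 ± 0.35 (edgeR adjusted p = 2.3e-05). Bcl11b, a factor of T cell commitment, had 262, 133, 250 and 473 CPM against 1058, 1066, 871 and 940 CPM, again with no overlap (-1.81 ± 0.34, edgeR adjusted p = 4.1e-05). Lef1, a factor of naive T cells, had 131, 464, 166 and 189 CPM against 672, 730, 435 and 950 CPM. It was lower in 4 of 4 libraries (-1.70 ± 0.37, edgeR adjusted p = 0.0011; 0.062 without Brca1-WT replicate 1). Grap2, an adaptor downstream of the T cell receptor, had 306, 596, 250 and 426 CPM against 1368, 1573, 1650 and 1163 CPM (-1.88 ± 0.30), and Lck, the kinase of CD4 and CD8, 306, 265, 250 and 473 CPM against 555, 648, 1039 and 746 CPM (-1.15 ± 0.33, edgeR adjusted p = 0.029; between 0.097 and 0.21 without any 1 of the first 3 libraries). Against all T nuclei the log2 fold changes of Cd247, Bcl11b, Lef1 and Grap2 were 0.22, 0.35, 0.66 and 0.33, none called, and that of Lck was 1.23 (edgeR adjusted p = 0.037). The Lck call was lost with each library left out (edgeR adjusted p between 0.055 and 0.81). Its log2 fold change was 0.27 (adjusted p = 0.81) without Brca1-KO replicate 2, which held 293 of the 451 deep T nuclei. The depth and the missing Ptprc of the deep T nuclei moved with this reversal; their part in it was not tested.

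**Figure D3:**
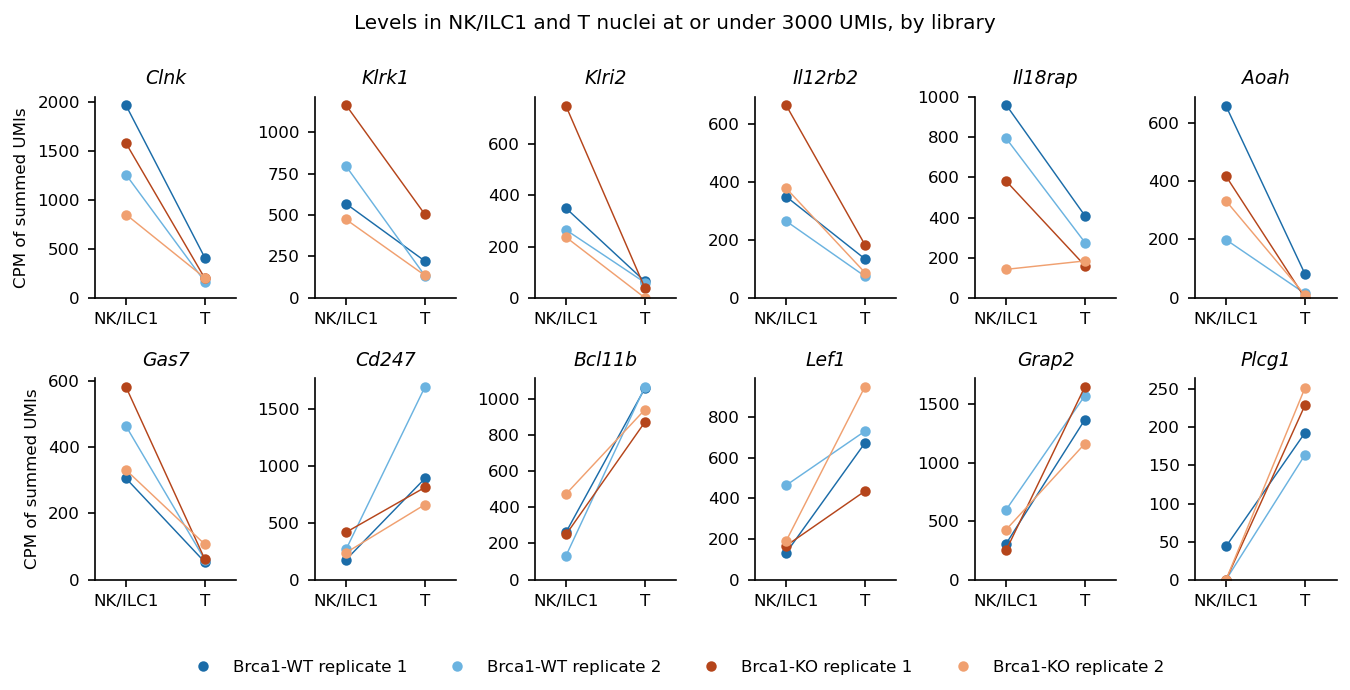
CPM of summed UMIs (y axis, from 0, each panel with its own scale) for 12 genes in NK/ILC1 and T nuclei at or under 3000 UMIs, with 1 point per library and class and lines joining the classes of a library. Clnk, Klri2, Il12rb2, Aoah and Gas7 are higher in NK/ILC1 nuclei without overlap, Il18rap crosses in Brca1-KO replicate 2, and Cd247, Bcl11b, Grap2 and Plcg1 are lower without overlap. Klri2, Aoah and Gas7 passed the expression filter only through NK/ILC1 sums, Il12rb2 mainly so, and Plcg1 only through T sums.

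The fixed lists were read by their counts beside these background shares. Of 26 genes shared by NK cells and ILC1, 15 were tested against all T nuclei and 14 were called higher (median 3.37), and 11 were tested at or under 3000 UMIs with 6 higher: Klrk1, Klri2, Txk, Il18rap, Il12rb2 and Samd3 (median 1.16, against -0.04 over all genes). Only Klrk1 and Klri2 of these 6 were called there with any 1 library left out, and Samd3 was lost with each (edgeR adjusted p between 0.095 and 0.39). Conventional NK genes had 3 of 3 tested higher than in all T nuclei (Itga2 4.00 ± 0.57, Zeb2 2.72 ± 0.51 and Klra4 3.13 ± 0.62), and 0 of 1 at or under 3000 UMIs. ILC1 genes had 5 of 8 higher (Tnfsf10, Il7r, Cd200r1, Inpp4b and Il18r1), and 0 of 6 (median -0.28; Il7r at -0.49 and Inpp4b at -0.59). Il7r was lost without Brca1-WT replicate 2 (edgeR adjusted p = 0.16) or Brca1-KO replicate 2 (0.27). Genes of low UMIs pass the expression filter most easily when they are high in 1 class. Against all T nuclei Itga2, Cd200r1 and Tnfsf10 passed it through their NK/ILC1 sums alone. At or under 3000 UMIs Klri2 did so too, and Il12rb2 and Samd3 mainly. The shares called higher were thus raised by the filter, here and in the lists below, and do not describe the lists' untested members.

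The functional lists gave few calls at or under 3000 UMIs. Activating receptors and adaptors had 3 of 4 higher against all T nuclei (Klrk1, Cd226 and Cd244a), and 1 higher (Klrk1) and 1 lower (Cd247) of 4. Inhibitory receptors had 2 of 3 higher (Klrb1b and Cd200r1), and 0 of 2. Cytokine receptors had 6 of 11 higher, among them Il2rb at 3.01 ± 0.49, and 2 of 8. Signalling genes had 12 of 19 higher, and 2 higher (Txk and Lyn) and 2 lower (Lck and Plcg1) of 16. Transcription factors had 11 of 19 higher and Zbtb16 lower, and 2 of 17 lower (Lef1 and Bcl11b). Adhesion and trafficking genes had 4 of 10 higher, and 1 of 6 lower, the integrin chain Itga4 (in 3 of 4 libraries; lost without Brca1-WT replicate 2 or either library labelled Brca1-KO). Granule genes had 3 of 4 higher (Srgn, Rab27a and Tnfsf10), and 0 of 1 (Rab27a at -0.37). Ly49 genes had 2 of 2 higher (Klra1 and Klra4), and none was tested at or under 3000 UMIs. Of 19 hepatocyte genes, 5 were lower than in all T nuclei (Apob, Cyp2e1, Ass1, Hnf4a and Ahsg), and 0 of 13 at or under 3000 UMIs (median 0.04). The 15 lower genes of smallest p against all T nuclei included the hepatocyte enzymes Ass1 (-2.92) and Abat (-3.03) and the transporter Slc1a2 (-2.88), and 0 of the 15 passed the expression filter at or under 3000 UMIs. With no filter there, all 15 were negative and none was called (edgeR adjusted p from 0.059 for Ass1, at -2.33, to 0.89). The median of all 12678 genes of that fit was itself -0.75. The 15 were picked as lower in mostly the same NK/ILC1 nuclei, so their direction was largely set in advance. MHC class I genes had 2 of 6 higher (H2-D1 and H2-Q7), and 0 of 5 (H2-Q7 at -0.30). The H2-Q7 call was lost without Brca1-WT replicate 2 (edgeR adjusted p = 0.089), Brca1-KO replicate 1 (0.088) or Brca1-KO replicate 2 (0.75). That of H2-D1 was lost without Brca1-WT replicate 1 (0.07) or Brca1-KO replicate 2 (0.26). Of the calls against all T nuclei in these lists, leaving out 1 library ended those of Inpp4b (edgeR adjusted p = 0.33) and Rab27a (0.10) without Brca1-KO replicate 2, and those of Tnfsf10, Il18r1, Srgn, Klra1, Zbtb16, Apob, Cyp2e1 and Ahsg without at least 1 library (between 0.052 and 0.25 where lost). The Lyn call was lost without Brca1-WT replicate 1 (edgeR adjusted p = 0.31) or Brca1-KO replicate 1 (0.19). That of Lck was lost with each library left out.

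The share of NK/ILC1 nuclei did not separate the genotypes. They made up 0.273% (exact Clopper-Pearson 95% interval 0.162 to 0.431) of the kept nuclei of Brca1-WT replicate 1 and 0.199% (0.112 to 0.329) of replicate 2. In the libraries labelled Brca1-KO they made up 0.139% (0.0558 to 0.286) and 0.294% (0.177 to 0.459). The libraries labelled Brca1-KO held the lowest and the highest share. The group means were 0.236% for Brca1-WT and 0.217% for Brca1-KO (difference -0.0198 percentage points, 2-sided exact permutation p = 1; the smallest p that 2 against 2 libraries allow is 0.33). Among NK/ILC1 plus T nuclei the shares were 8.11%, 9.26%, 5.15% and 4.99%, lower in both libraries labelled Brca1-KO (difference -3.62 points, exact permutation p = 0.33, the smallest possible). With both classes at or under 3000 UMIs they were 11.4%, 11.2%, 6.93% and 18.8% (difference 1.60 points, exact permutation p = 1), so the direction among lymphocytes turned when the deep T nuclei were left out.

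**Figure D4:**
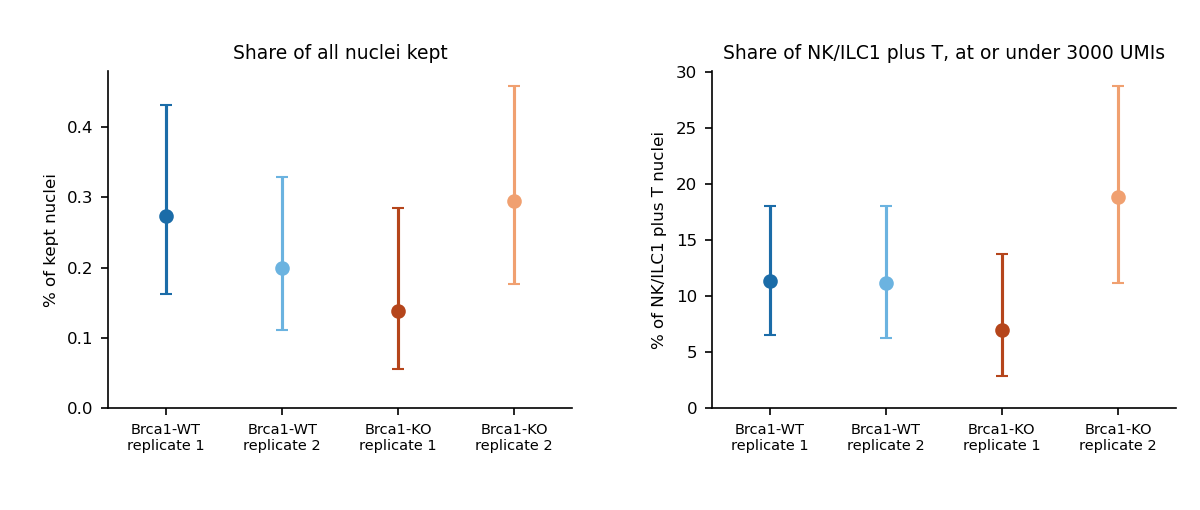
NK/ILC1 nuclei as a share of all kept nuclei (left, %) and of NK/ILC1 plus T nuclei at or under 3000 UMIs (right, %), 1 point per library with its exact 95% binomial interval, axes from 0. The libraries labelled Brca1-KO hold both the lowest and the highest share in each panel.

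Levels by genotype had no test at the set minimum of 10 nuclei a library, because Brca1-KO replicate 1 held 7. Run nonetheless, edgeR called 0 of 470 genes (0%; 1 at an unadjusted p below 0.05; DESeq2 0). Brca1 itself had 2, 1, 0 and 0 UMIs in the NK/ILC1 nuclei, and 0 UMIs over the 26 nuclei labelled Brca1-KO allows up to 66.9 CPM. Over all kept nuclei Brca1 stood at 11.9, 11.2, 17.3 and 5.48 CPM, so of the libraries labelled Brca1-KO only replicate 2 was lower, and a 3′ tag outside the deleted part would check nothing. Bhmt had 57, 6, 1 and 6 UMIs, in 16 nuclei. It was in 27.1% of NK/ILC1 nuclei, 26.9% of T nuclei up to 3000 UMIs and 38.9% of endothelial nuclei. It stood at 1148, 331, 83.2 and 183 CPM in the libraries' NK/ILC1 nuclei compared with 374, 298, 168 and 67.8 CPM in those T nuclei. Of its 70 UMIs, 57 came from Brca1-WT replicate 1. Widening the gate to at least 1 UMI gave 3539 testable genes, of which edgeR called 0 (0%) and 60 had an unadjusted p below 0.05. DESeq2 was not run with this gate. The wider gate added 109 nuclei with 1 gate UMI. The summed UMIs rose from between 12024 and 49664 a library to between 85964 and 340859. Those 109 nuclei held 547 CPM of the shared NK/ILC1 genes and 22306 CPM of hepatocyte genes. Most UMIs of this fit thus came from nuclei outside the rule. Among the genes of smallest p with this wider gate, Il18rap was at a log2 fold change of -1.33 and Fmo2 at -3.52, and neither was called. The difference of the genotype effect between NK/ILC1 and T nuclei was called for 0 of 6564 genes (0%; 123 at an unadjusted p below 0.05; DESeq2 0).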

How the data were processed

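Single-nucleus RNA libraries of liver, 2 labelled Brca1-WT and 2 labelled Brca1-KO, were analysed from the deposited raw UMI counts per gene and barcode, which the authors made with Cell Ranger (version 6.0.0 in the file headers) and left unnormalized. The submitters' processing notes name build GRCh38, which is human, while the gene identifiers are of mouse; the sources used here do not give the mouse build, strand use or intron counting. The labels give the molecule as genomic DNA. Replicates are called biological, and nothing more is said of the mice, so p-values measure the spread between these samples.

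Libraries held between 5209 and 7833 barcodes and between 36662067 and 45638888 UMIs. Filters kept nuclei that had 500 or more genes and no more than 5% of UMIs from mitochondrial genes (5048 to 7521 a library). Pairs of libraries shared 9 to 20 barcodes, none of them an NK/ILC1 nucleus. Since nuclei of 1 library are not replicates, their UMIs were added up by library and class (12024 to 49664 UMIs in NK/ILC1) and tested with edgeR 4.0.16 in R 4.3.3 (TMM, filterByExpr, robust glmQLFit, Benjamini-Hochberg below 0.05), after a check on simulated data. CPM in the text are plain shares of a sum, and fold changes are log2. Levels are counts of 3′ tags and are compared between classes, not between genes. DESeq2 1.42.0 and scanpy 1.11.5 (Scrublet; no doublets removed) gave alternatives. Intervals and limits from a count of 0, read as up to 3, cover counting error only. Fewer cells and fewer transcripts per cell cannot be told apart in shares of nuclei.

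The members and lists were chosen with earlier results of these data known. Named genes were the gate genes, list members, and up to 15 passing genes each way of smallest p with an average log2 CPM of at least 3 and 1 direction in every library; genes called at or under 3000 UMIs were added after their values were seen. A few named items are left out of the text.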

Additional observations from a re-analysis of the deposited data

How the results depend on the processing

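Calls against all T nuclei depended on which T nuclei were taken. From 810, the count went to 18 with 1 gate UMI, 353 with 3, 76 with 2 T cell UMIs, 76 with nuclei thinned to 500 UMIs, 42 with both classes at or under 3000 UMIs, 44 with a Ptprc UMI in both and 131 with no library block, and to between 412 and 570 with a library left out. DESeq2 gave 566, TMMwsp scaling 716, no scaling 768, no limit on other cell types' genes 842, doublets left out 1029 and no filter 1060. At or under 3000 UMIs the 42 became 88 with no filter and between 24 and 51 with a library left out; of the 42, leaving out Brca1-WT replicate 1 kept 18 and replicate 2 kept 29, leaving out Brca1-KO replicate 1 kept 24 and replicate 2 kept 34, and 22 were called in the same direction with Ptprc in both classes. Among the genes followed across the alternatives, the log2 fold changes that reversed were Lck -0.33, Il7r -0.25, Ms4a4b -0.06, Ass1 0.12, Abat 0.01 and Hnf4a 0.13 with 1 gate UMI; Lck -1.15, Cd247 -1.94, Bcl11b -1.81, Lef1 -1.70, Grap2 -1.88, Itga4 -1.14, Il7r -0.49, Inpp4b -0.59, Rab27a -0.37, H2-Q7 -0.30, Ms4a4b -0.42, Ahsg 0.13 and Zbtb16 0.06 at or under 3000 UMIs; Lck -0.71, Cd247 -1.82, Grap2 -1.61, Il7r -0.36, Inpp4b -0.22, Rab27a -0.05 and Ms4a4b -0.22 with Ptprc in both; and Bcl11b -2.01 after thinning. The cause was not tested. Over these genes, 894 of 1166 alternative values kept direction and side of the threshold, 236 lost the call, 9 gained it and 27 reversed. Other genes called against all T nuclei were not followed and include more reversals.

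By genotype, counts were 0 with the 2 gate UMIs of the rule (470 genes tested despite 7 nuclei in 1 library), with 1 or 3 gate UMIs, without doublets, thinned, unfiltered and by DESeq2. They were between 0 and 3 with a library left out, 3 without Brca1-KO replicate 2 (Gfra1, B3galt1 and Ppara, all lower). With the replicate number as a block the count was 0, and 6 with the block and 1 gate UMI. Same-numbered libraries did not deviate together (correlation -0.482 over 470 genes, with 1 pair a group); crossing the pairing gave 0. The interaction count was 0 in every alternative run. The difference in share stayed between -0.0976 and 0.0581 points with a library left out and within the spread in the other alternatives. The Eomes alternatives were not run, as that comparison had 1 positive nucleus a library. Depth limits the rest: with 59 nuclei, 10682 of 32285 genes had any UMI.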

Other observations

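Outside the lists, Bcl2, which blocks cell death, averaged 3745 CPM per NK/ILC1 nucleus and 3299 CPM per T nucleus at or under 3000 UMIs. Ccnd3, a D-type cyclin, averaged 3552 and 4760 CPM. Of nuclei that the exclusions of the rule left out, 97 nuclei had at least 2 gate UMIs and a T cell UMI, and 28 had at least 2 gate UMIs and a UMI of the endothelial, macrophage or B cell genes, so the exclusions removed more nuclei with at least 2 gate UMIs than the 59 that stayed.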
